A study of Canis lupus familiaris with 16 samples.

Results

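Homeobox factors are transcription factors that bind DNA through a homeodomain. The genes described here are those outside the HOX clusters, chosen by symbol from the families LHX, LMX, the sine oculis genes, PAX, NKX, MSX, DLX, EN, GBX, VAX, BARX, BARHL, TLX, EMX, ALX, OTX, PITX, PRRX, SHOX, PHOX, IRX, MEIS, PBX, POU, ONECUT, CUX, SATB and ZFHX, with PAX5 and SATB1 left out. Membership rests on the symbol alone, and whether each member encodes a complete homeodomain was not checked. The members came to 92 of the 18112 genes that the authors assigned at least 1 peak and whose transcription start could be recovered. Of 109 coding symbols of the same families in a RefSeq table of the dog, 91 carried an assigned peak (83.5%, 95% Wilson interval 75.4 to 89.3), against 11387 of 17395 named coding genes (65.5%). Among the 18 without one were BARX1, DLX2, EMX1, EMX2, GBX2, IRX5, MSX1, NKX2-1, NKX2-4, NKX6-2, OTX2, PAX6, PBX2, PITX3, POU3F1, SIX4 and TLX3. No listed peak was assigned to the 18, so no call was made for them here.

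DNA methylation was profiled by MethylCap-seq, in which methylated DNA is captured and sequenced, so that a peak marks a methylated stretch. The lymphoma group was 5 dogs with high-grade B-cell lymphoma, sampled by needle aspiration of an enlarged lymph node: a schnauzer, a mixed-breed dog and a dachshund of 10 years each, a dog of 5 years whose breed was not given, and a golden retriever of 13 years, with tumour stages from III to V. The healthy group was 3 dogs, sampled as peripheral blood mononuclear cells: a mixed-breed dog of 7 years, a golden retriever of 2 years and a standard poodle of 5 years. Each dog gave 1 library labelled L and 1 labelled M-H, 16 libraries in all, and the labels do not say what L and M-H stand for. The authors deposited 1 pooled peak list per group and fraction, so the values used here are not per dog, no difference below has a replicate check, and no p-value is given. Every lymphoma dog was sampled at a lymph node and every healthy dog from blood, so disease, tissue, cell makeup and age cannot be told apart.

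Homeodomain factors set cell identity and body pattern in the embryo, and most are silent in blood cells. Their start sites usually lie in CpG islands, stretches rich in the dinucleotide that DNA methyltransferases modify. Such islands are commonly held by Polycomb repressors in normal cells, and gain DNA methylation in many cancers. A few members act in blood: MEIS1 is a partner of HOX proteins in haematopoietic stem cells, POU2F2 (OCT2) is a B-cell factor, and POU2F1 (OCT1) is expressed widely.

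The L lists were of similar length, with 45623 peaks (33.2 Mb) in lymphoma and 44811 (26.7 Mb) in healthy dogs. The M-H lists were not, with 34939 peaks (27.9 Mb) in lymphoma and 19867 (12.4 Mb) in healthy dogs. Each peak carries a fold enrichment, the authors' own ratio of the peak over background, which was nowhere below 6 and levels are compared here only within a list. Values of different lists stand side by side as a description, and a common minimum of 8 serves as an alternative. Sequencing depth is unknown, and a stretch with a lower enrichment would have no peak. A promoter peak is a peak that overlaps the 1 kb either side of the transcription start, and a gene was called lymphoma-only, healthy-only or both within a fraction. Of the 92 members, 16 had peaks in both promoter and gene body in at least 1 list, 21 in the promoter only, 41 in the body only, and 14 in neither, their peaks lying further upstream or downstream.

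More members had a lymphoma-only promoter peak in M-H than in L. In M-H, 28 of 92 members (30.4%, interval 22.0 to 40.5) were lymphoma-only, against 18.7% of all genes. None was healthy-only (interval 0.0 to 4.0), against 0.712%, and 3 (3.3%) had a peak in both groups, against 10.2%. In L, 14 members (15.2%, interval 9.3 to 23.9) were lymphoma-only, against 16.0% of all genes. A further 4 (4.3%) were healthy-only in L, against 3.86%, and 6 (6.5%) had a peak in both, against 15.4%. The lymphoma-only share thus lay above the share of all genes in M-H and close to it in L. A gene, member or not, was counted only if some list assigned it a peak. Some of the 28, among them LHX3, ONECUT3, PHOX2A and TLX2, had peaks in lymphoma M-H alone. They entered through that list and could not have been called healthy-only or both. All intervals cover counting error over genes only, and members of 1 family are not independent.

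The M-H excess rested on peaks of low enrichment. With only peaks of at least 8-fold kept in both lists, 10 members (10.9%) were lymphoma-only in M-H, below the 16.5% of all genes. With the lymphoma M-H list shortened to the length of the healthy one, which removed its peaks under 9.32-fold, 8 members (8.7%) were, against 10.5%. In L, 6 members (6.5%) were lymphoma-only at 8-fold or more, against 13.6% of all genes. The M-H count also depended on the promoter window. With the peak's middle required in the window, 21 members (22.8%) were lymphoma-only in M-H, against 16.1% of all genes. With a window of 500 bp either side, 20 (21.7%) were, against 15.8%.

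**Figure D1:**
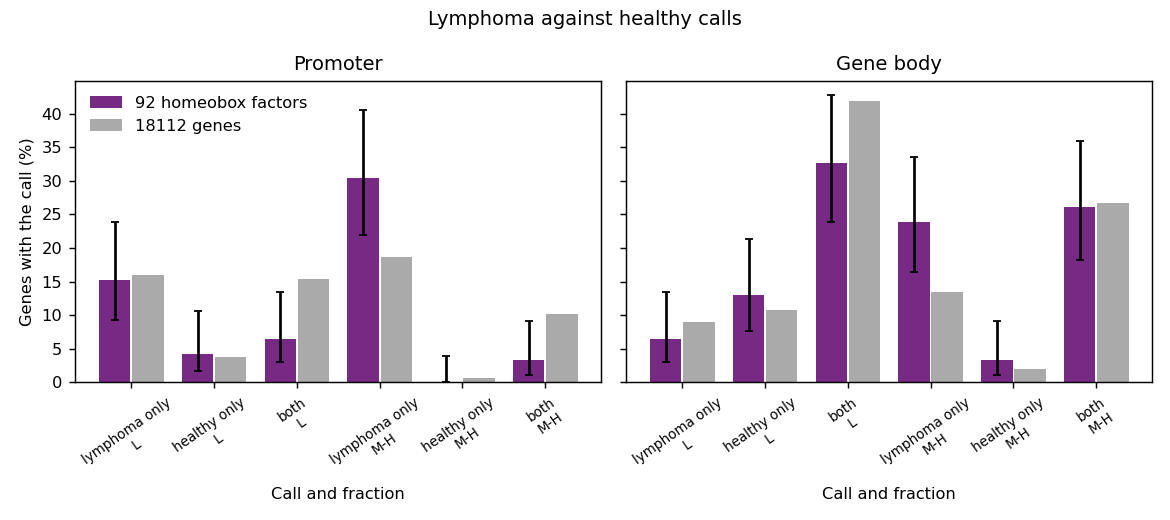
Share of genes, in percent, with each call in the promoter (left) and the gene body (right), by fraction, for the 92 homeobox factors and for all 18112 genes; error bars are 95% Wilson intervals of the counts of members. The lymphoma-only bar of M-H stands above the bar of all genes in both panels, 30.4% against 18.7% in the promoter and 23.9% against 13.5% in the body.

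In the lymphoma M-H list the 31 members with a promoter peak ran from 6.03-fold to 15.65-fold with a median of 7.38, and 13 of them (41.9%) reached 8-fold. Over all 5221 genes with a promoter peak in that list the median was 10.72, and 76.9% reached 8-fold. In the lymphoma L list 20 members had a median of 8.0, against 9.36 over all genes. The 10 members of the healthy L list had a median of 8.08, against 8.15, and the 3 of healthy M-H 11.03, against 8.39. A promoter peak in lymphoma M-H, with or without a healthy one, was thus listed for 33.7% of the members and 28.8% of all genes, with a lower median enrichment in the members.

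**Figure D2:**
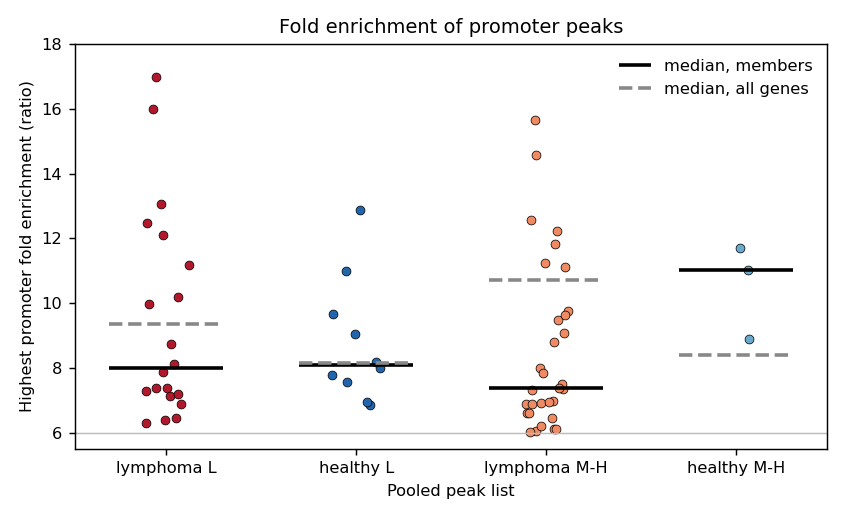
Highest promoter fold enrichment (a ratio; the axis starts at 5.5) of each member with a promoter peak, by pooled list. Points are genes, solid lines the medians of the members and dashed lines those of all genes; in lymphoma M-H most points lie under the dashed line at 10.72.

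By class, the CUT factors, which include the ONECUT, CUX and SATB genes, had a promoter peak in some list for 5 of 6 members. The POU factors had one for 7 of 12 and the PRD factors without PAX (ALX, OTX, PITX, PRRX, SHOX, PHOX) for 6 of 11. Of the ANTP factors (NKX, MSX, DLX, EN and relatives) 11 of 27 had one, of the SINE factors (the sine oculis genes) 2 of 5, and of the LIM factors (LHX, LMX) 3 of 10. The TALE factors (IRX, MEIS, PBX) had 2 of 11 and the PAX genes 1 of 7, and none of the 3 ZFHX zinc finger factors had any. In all, 37 members (40.2%) had a promoter peak in some list, against 39.8% of all genes.

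**Figure D3:**
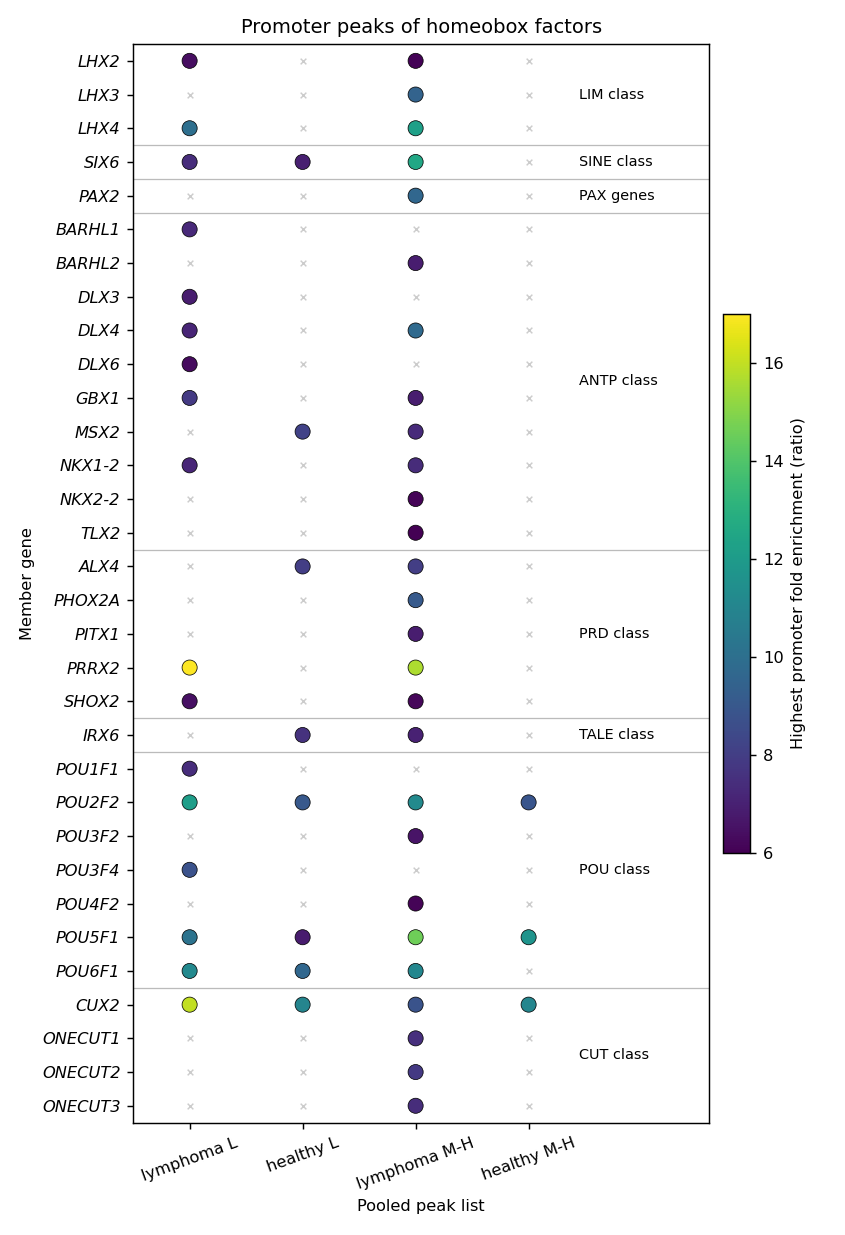
Members with a promoter peak in any list (32 of the 37, in rows by class) and the 4 pooled lists (columns). A circle is a peak, coloured by its highest fold enrichment (ratio), and a cross is no peak; the lymphoma M-H column is the fullest, and the healthy M-H column holds 3.

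The members called lymphoma-only at the promoter in both fractions numbered 9 (9.8%), against 10.4% of all genes. They spanned 5 classes and included PRRX2, LHX4, LHX2, DLX4, GBX1, NKX1-2 and SHOX2. PRRX2, a factor of embryonic mesenchyme, had the highest promoter peak of the members in both lymphoma lists. Its peak in the CpG island at its start (chromosome 9, 54112554 to 54113438 in CanFam3.1, the build of all coordinates here) had 16.97-fold in lymphoma L, higher than 94.6% of that list, and 15.65-fold in lymphoma M-H. Neither healthy list held a peak there.

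LHX4, a LIM factor of pituitary and motor neuron development, had a promoter peak on an island shore, the flank of a CpG island (chromosome 7, 13778071 to 13778760). It was enriched 9.96-fold in lymphoma L and 12.22-fold in lymphoma M-H. The highest LHX4 peak lay further in, in an intron (chromosome 7, 13793310 to 13794015), at 13.18-fold in L and 18.76-fold in M-H, again with no healthy peak. LHX2, a LIM factor of forebrain and hair follicle, carried weak promoter peaks, at 6.40-fold in L and 6.05-fold in M-H, which the authors assigned to the uncharacterised gene LOC102152949.

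DLX4, GBX1, NKX1-2 and SHOX2 had weaker peaks than PRRX2 and LHX4. DLX4, of the distal-less family, had 7.14-fold in L and 9.74-fold in M-H, the middle of the M-H peak lying 1071 bp upstream. GBX1, a neural factor, had 7.88-fold and 6.87-fold, and NKX1-2 had 7.19-fold and 7.35-fold. SHOX2, a factor of limb and sinus node whose methylation is used as a lung cancer marker in human patients, had 6.45-fold and 6.21-fold.

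A promoter peak in all 4 lists was found for POU2F2, POU5F1 and CUX2, 3 members (3.3%) against 6.93% of all genes. POU2F2, the OCT2 factor of B cells, had its peak over the 5' UTR on an island shore (chromosome 1, 112166163 to 112166829). The enrichment there was 12.11-fold in lymphoma L, 9.04-fold in healthy L, 11.23-fold in lymphoma M-H and 8.88-fold in healthy M-H. POU5F1, the pluripotency factor OCT4, had 10.19-fold, 6.85-fold, 14.57-fold and 11.71-fold in the same order. CUX2, a factor of upper-layer cortical neurons, had 16.00-fold, 10.99-fold, 8.80-fold and 11.03-fold, at a site that the authors assigned to the neighbouring LOC111092599 in 3 of the lists. Methylation at these starts was thus listed for lymph node and blood alike.

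A further 3 members had a promoter peak in every list but healthy M-H. Among them POU6F1, a brain factor, had 11.18-fold in lymphoma L, 9.65-fold in healthy L and 11.11-fold in lymphoma M-H. SIX6, a factor of eye and pituitary, had 7.39-fold, 6.95-fold and 12.56-fold in the same order. The 3 members count as lymphoma-only in M-H although blood DNA carried a peak in L. The share of all genes with this promoter pattern was not counted. Where overlapping peaks of the lists were merged into loci, 6.6% of the members' loci had this pattern, against 9.1% of all genes' loci. Of the 28 members lymphoma-only in M-H, 6 (21.4%) had such a healthy L peak, among them ALX4, IRX6, MSX2, POU6F1 and SIX6, against 27.3% of the 3379 genes with that call.

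Healthy-only promoter calls were limited to L and to 4 members. Among them MSX2, a skull and limb factor, had 8.18-fold in healthy L, ALX4, of the skull, 7.98-fold, and IRX6, of the Iroquois family, 7.57-fold. The middle of each peak lay more than 1 kb from the start. None of the 4 was thus called where the middle had to fall in the window, against 3.33% of all genes. With a window of 500 bp either side none was called, against 2.52%. None was healthy-only in both fractions, against 0.0994% of all genes.

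Lymphoma L and lymphoma M-H, which come from the same 5 dogs, were also set against each other. A promoter peak in M-H only was found for 16 members (17.4%, interval 11.0 to 26.4), against 4.46% of all genes. In L only there were 5 (5.4%), against 7.08%, and in both 15 (16.3%), against 24.4%. The M-H-only count was 18 (19.6%), against 7.65% of all genes, when the longer list was shortened, and 6 (6.5%), against 6.01%, when only peaks of 8-fold or more were kept. In healthy dogs 7 members (7.6%) were listed in L only, against 12.0%, none in M-H only, against 3.58%, and 3 (3.3%) in both, against 7.30%.

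The highest of the 16 was PAX2, a kidney factor, with 9.64-fold in a CpG island (chromosome 28, 13442005 to 13442590). LHX3, which acts with LHX4 in the pituitary, had 9.48-fold, and PHOX2A, of autonomic neurons, 9.09-fold. All 3 ONECUT genes, factors of liver, pancreas and neurons, were among them. ONECUT1 had 7.49-fold, with the peak's middle 2017 bp from the start, ONECUT2 7.83-fold and ONECUT3 7.38-fold. The other members listed in M-H only ran from 6.03-fold for TLX2 to 8.0-fold for ALX4. The 5 listed in L only were POU3F4 at 8.75-fold, POU1F1 at 7.39-fold, BARHL1 at 7.28-fold, DLX3 at 6.88-fold and DLX6 at 6.31-fold. At BARHL1 a lymphoma M-H peak of 10.91-fold overlapped the L peak but lay just outside the promoter window. Where absence was required over 5 kb, 2 members (2.2%) were listed in L only, against 5.89% of all genes.

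Where a group's fractions were joined, 27 members (29.3%, interval 21.0 to 39.3) had a promoter peak in lymphoma alone, against 16.9% of all genes. In healthy alone 1 member (1.1%) had one, against 3.89%.

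In gene bodies the same split between fractions appeared. In M-H, 22 members (23.9%, interval 16.4 to 33.6) had a body peak in lymphoma only, against 13.5% of all genes, 3 (3.3%) in healthy only, against 1.96%, and 24 (26.1%) in both, against 26.7%. In L, 6 members (6.5%) were lymphoma-only, against 9.05%, 12 (13.0%) healthy-only, against 10.8%, and 30 (32.6%) had peaks in both, against 41.9%. With the M-H lists at equal length the lymphoma-only count fell to 7 (7.6%), against 5.33% of all genes, and the healthy-only count was 10 (10.9%), against 6.86%. At 8-fold or more the lymphoma-only body counts were 19 (20.7%) in M-H, against 15.5%, and 15 (16.3%) in L, against 11.1%. With fractions joined, 13 members (14.1%) had body peaks in lymphoma alone, against 7.75%, and 7 (7.6%) in healthy alone, against 10.8%. In all, 57 members (62.0%, interval 51.7 to 71.2) had a body peak in some list, against 66.1% of all genes. Of the 11383 named coding genes with a recovered start 77.7% had one, above the members' interval. In all 4 lists 19 members (20.7%, interval 13.6 to 30.0) had one, against 21.7% of all genes and 26.7% of the coding ones. Body peaks in both groups of L were held by 51.4% of the coding genes, above the members' interval of 23.9 to 42.7. In M-H the coding share for both groups lay within the members' interval of 18.2 to 35.9.

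Body peaks in lymphoma only in both fractions were found for MEIS3, NKX2-6 and POU4F1, 3 members (3.3%) against 2.77%. POU4F1, a sensory neuron factor, had 9.07-fold in L and 9.84-fold in M-H in its coding sequence on an island shore (chromosome 22, 31995529 to 31995988). MEIS3, a HOX partner, had up to 10.01-fold in L and 7.69-fold in M-H. NKX2-6, a factor of pharynx and heart, had 6.40-fold and 8.46-fold in a CpG island over its 3' UTR.

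Body peaks in healthy only in both fractions were also found for 3 members (3.3%), against 0.259% of all genes. Among them OTX1, a forebrain factor, had 6.95-fold in healthy L and 7.61-fold in healthy M-H at 1 locus, and VAX1, of the optic stalk, had 6.64-fold and 6.29-fold at another. These genes had no body peak in either lymphoma list, although VAX1 had an upstream lymphoma M-H peak at 6.37-fold. Their shared peaks lay below the list medians of 7.77-fold in healthy L and 8.14-fold in healthy M-H. The other 9 members with healthy-only bodies in L were DLX3, EN1, IRX1, LHX6, LHX9, NKX2-5, NKX2-8, PAX1 and PAX4.

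Counted as peaks, members carried 188 in lymphoma L and 154 in healthy L, a ratio of 1.22, against 1.03 over all genes. In M-H they carried 189 and 70, a ratio of 2.70, against 1.87. Of the 79 members with an M-H peak, 64 (81.0%) had more in lymphoma and 5 (6.3%) more in healthy, against 60.1% and 5.5% of all genes. In L, 35 of 76 (46.1%) had more in lymphoma and 26 (34.2%) more in healthy, against 34.1% and 30.3%.

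The share of peaks with no counterpart in the other group was higher for members than for all genes in all 4 lists. Of their lymphoma L peaks 58.0% (interval 50.8 to 64.8) overlapped no healthy L peak, against 38.6%. Of their healthy L peaks 48.1% (40.3 to 55.9) overlapped no lymphoma L peak, against 36.1%. In M-H the shares were 70.4% (63.5 to 76.4) of lymphoma peaks, against 52.1%, and 21.4% (13.4 to 32.4) of healthy peaks, against 10.2%. With the M-H lists at equal length the lymphoma M-H share was 52.6%, against 35.2%, and with peaks of at least 8-fold kept in both lists it was 82.7%, against 63.8%. The share of lymphoma M-H peaks thus stayed above that of all genes under both settings, where the count of lymphoma-only M-H promoters did not. Peaks of the HOX cluster genes, on the full lists, were unmatched at 65.6% in lymphoma L and 79.5% in lymphoma M-H, above the members' shares. For further homeobox genes outside the rule these shares were 33.3% and 61.7%. In healthy L and healthy M-H the HOX genes had 26.7% and 10.0%, and the further genes 26.7% and 14.0%.

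The shares were also taken by location and enrichment. In CpG islands and shores 72.4% of the members' lymphoma L peaks had no healthy peak, against 53.3%, and outside them 45.5%, against 28.7%. Among lymphoma L peaks under 8-fold the share was 73.0%, against 56.9%, and among the others 44.4%, against 26.2%. In healthy L the split by location differed: of the members' island and shore peaks 28 of 53 (52.8%, interval 39.7 to 65.6) had no lymphoma L peak, against 17.0% over all genes. Outside islands and shores the healthy L share was 45.5%, against 42.1%. Of these 28 peaks 8 (28.6%, interval 15.3 to 47.1) overlapped a lymphoma M-H peak, against 11.2% of the 1190 such peaks of all genes.

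In lymphoma M-H the unmatched share in islands and shores was 72.5% (interval 64.5 to 79.2), against 51.5%, and outside them 64.7% (51.0 to 76.4), against 53.2%. Under 8-fold it was 84.8% (75.3 to 91.1), against 77.8%, and at 8-fold or more 60.0% (50.7 to 68.7), against 40.4%. The intervals outside islands and under 8-fold held the value of all genes. In healthy M-H 15 of 49 members' peaks under 8-fold (30.6%) were unmatched, against 17.6%, and 0 of 21 at 8-fold or more (interval 0.0 to 15.5), against 2.7%.

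The share of peaks in CpG islands was higher for members than for all genes in lymphoma M-H (22.8%, interval 17.4 to 29.2, against 10.0%) and healthy L (13.0%, interval 8.6 to 19.2, against 3.7%). In lymphoma L the shares were 7.4% and 5.5%, and in healthy M-H 17.1% and 16.5%. Introns held 70.2% of the members' lymphoma L peaks, against 58.3%, and 55.6% of their lymphoma M-H peaks, against 54.3%. Of the members' lymphoma M-H peaks 38.1% (interval 31.5 to 45.2) overlapped no lymphoma L peak, against 19.1%.

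Overlapping peaks of the 4 lists were merged into 332 loci of members, beside 45801 loci of all genes. Loci with a peak in lymphoma M-H alone made up 16.6% (interval 13.0 to 20.9) of the members' loci, against 6.3%. Loci in both lymphoma lists and no healthy list made up 14.8% (interval 11.3 to 19.0), against 10.4%. Loci in all 4 lists made up 7.2% (interval 4.9 to 10.5), against 14.9%. Loci in healthy L alone were 18.1%, against 22.5%.

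**Figure D4:**
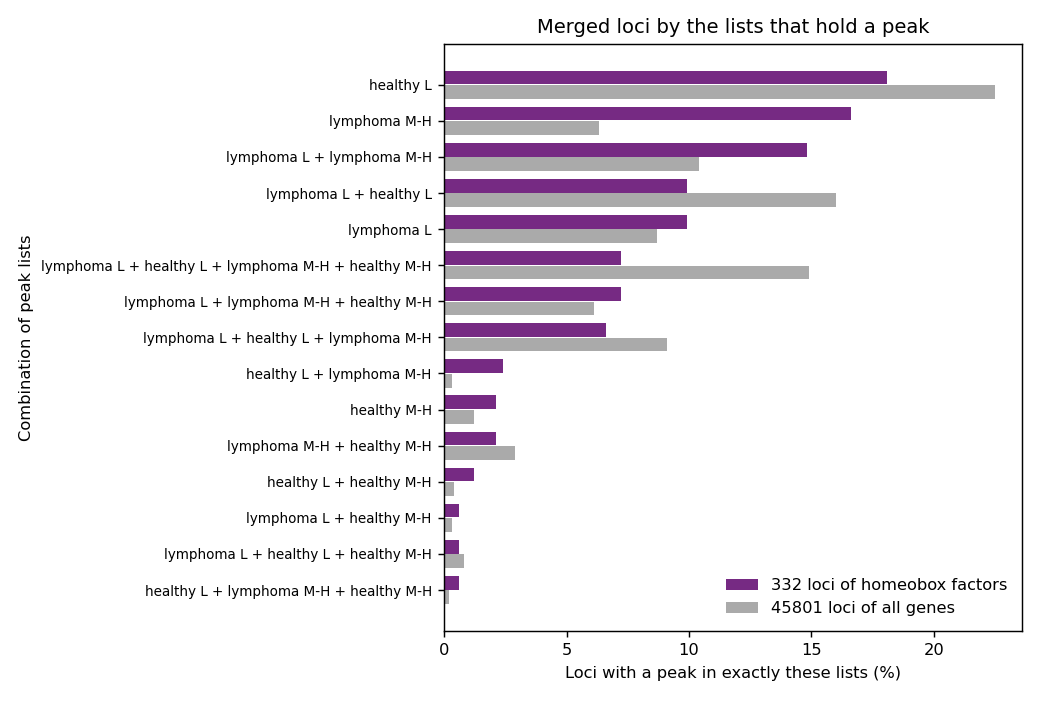
Percent of merged loci with a peak in exactly the named combination of lists, for the 332 loci of homeobox factors and the 45801 loci of all genes. The bars of the members exceed those of all genes for lymphoma M-H alone (16.6% against 6.3%) and fall below them for all 4 lists (7.2% against 14.9%).

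Among single genes MEIS1, which acts with HOX proteins in blood stem cells, had 8 peaks in lymphoma L, 6 in healthy L, 11 in lymphoma M-H and 6 in healthy M-H. Its highest peak was intronic, at 14.91-fold in lymphoma M-H and 7.66-fold in healthy M-H (chromosome 10, 65794431 to 65795135). MEIS2, a related HOX partner, had 5, 8, 2 and 0 peaks in the same order.

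Other large genes had peaks of each group. CUX1, a widely expressed repressor, had 15 peaks in lymphoma L, 16 in healthy L, 7 in lymphoma M-H and 2 in healthy M-H, and of its 24 loci 6 were in healthy L alone and 5 in lymphoma L alone. An intronic locus (chromosome 6, 8006337 to 8007376) reached 15.58-fold in lymphoma L and 17.40-fold in lymphoma M-H, with 6.49-fold in healthy L and 7.95-fold in healthy M-H. ZFHX3, a zinc finger homeobox factor, had 11, 8, 10 and 5 peaks, and CUX2 had 7, 8, 2 and 2. POU2F2 had 9, 9, 7 and 4, with its highest locus in an intron (chromosome 1, 112217725 to 112218311) at 19.26-fold, 13.69-fold, 13.20-fold and 8.16-fold.

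The LIM and PAX genes with the most peaks had more of them in lymphoma. LMX1B, of limb and kidney, had 9, 5, 8 and 1 peaks, and 5 of its 12 loci were in both lymphoma lists alone, the highest at 16.48-fold in L and 15.56-fold in M-H. LMX1A, of midbrain dopamine neurons, held the highest peak of any member in lymphoma M-H, an intronic one at 21.60-fold. The same locus had 17.89-fold in lymphoma L and 7.36-fold in healthy L (chromosome 38, 18074548 to 18075341). LHX4 had 6, 3, 9 and 2 peaks. PAX3, of neural crest and muscle, had 8, 4, 8 and 5, and PAX7, of muscle stem cells, had 6, 3, 7 and 4. A PAX7 intron (chromosome 2, 79902566 to 79903251) reached 18.28-fold in lymphoma M-H and 9.42-fold in lymphoma L with no healthy peak.

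**Figure D5:**
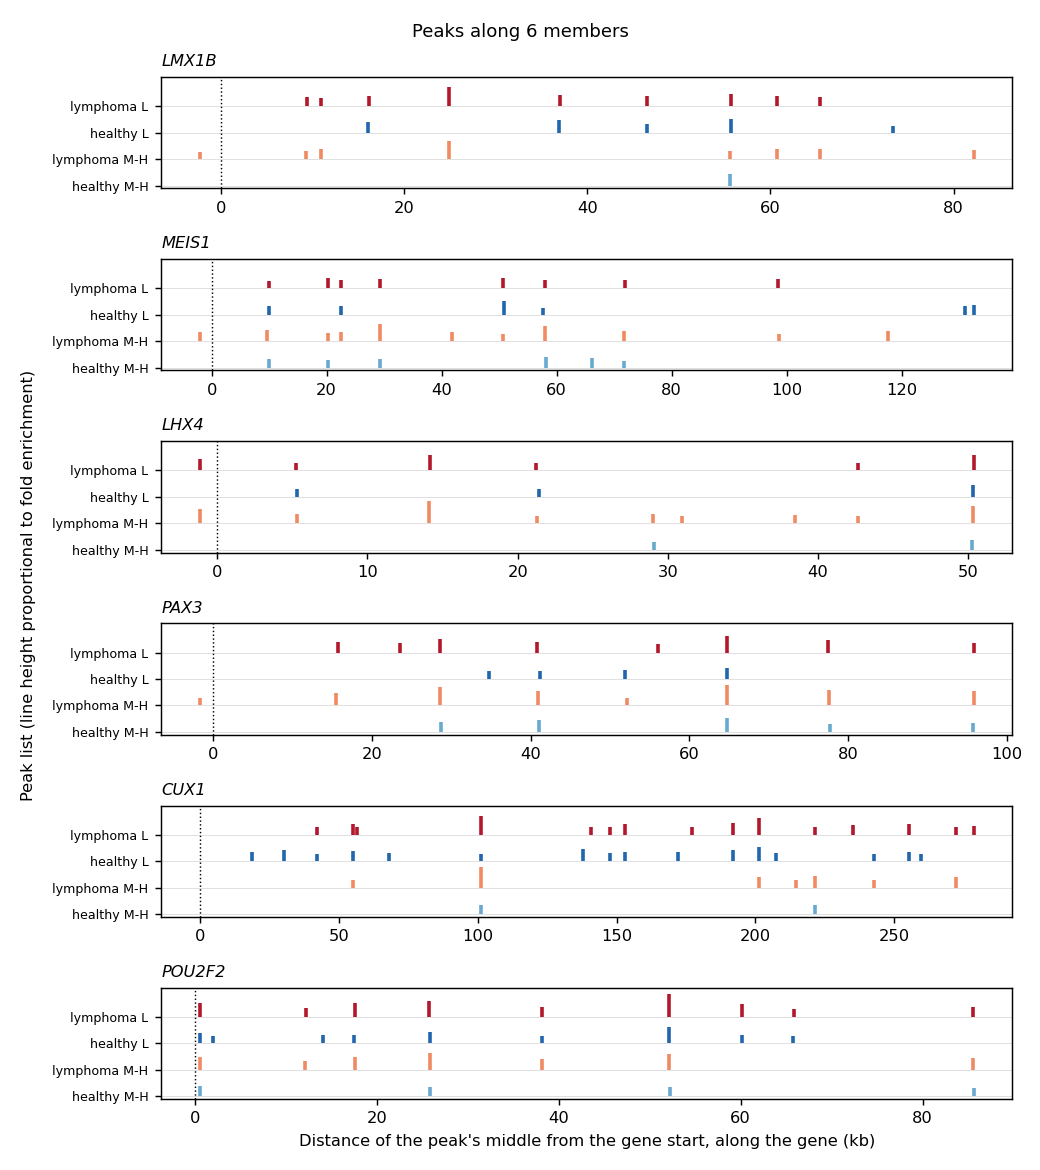
Peaks of LMX1B, MEIS1, LHX4, PAX3, CUX1 and POU2F2 by distance in kb of the peak's middle from the transcription start (dotted line). Each row of a panel is 1 pooled list and line height is proportional to fold enrichment; LMX1B has 8 lines in lymphoma M-H and 1 in healthy M-H, and POU2F2 has 9 in each L list.

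POU2F1 had no promoter peak, 2 peaks in lymphoma L, 3 in healthy L and none in M-H, the highest at 12.48-fold in its 3' UTR in lymphoma L. PAX8, a thyroid and kidney factor, had 1 locus, at 8.85-fold in lymphoma L, 6.80-fold in healthy L and 8.99-fold in lymphoma M-H. TLX1, a spleen factor that drives human T-cell leukaemia when translocated, had 1 downstream peak, at 6.39-fold in healthy L.

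Among the HOX genes, 16 of 28 promoters (57.1%) were lymphoma-only in M-H and 7 (25.0%) in L, against the 18.7% and 16.0% of all genes. Of 50 further homeobox genes 15 (30.0%) were lymphoma-only in M-H and 4 (8.0%) in L. The 15 included CERS6 at 11.55-fold, VSX1 at 11.09-fold and MNX1 at 10.01-fold in lymphoma M-H, all without a healthy L promoter peak. The highest of the 15, at 13.2-fold in lymphoma M-H, did have a healthy L promoter peak, at 8.59-fold. Of 23 cofactors of homeodomain proteins 2 (8.7%) were lymphoma-only in M-H, TLE3 at 16.25-fold and CTBP2 at 11.33-fold, and 3 (13.0%) in L. EYA2, a partner of the SINE factors, had a promoter peak in all 4 lists.

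Markers of the cell types in node and blood were set beside all genes. Of these, 16.0% in L and 18.7% in M-H were lymphoma-only at the promoter, and 3.86% and 0.712% healthy-only. Of 7 B-cell markers with a recovered start none was lymphoma-only at the promoter. In L 2 were healthy-only, among them POU2AF1, the partner of POU2F2, at 9.41-fold. Of 7 T-cell markers CD8A was lymphoma-only in both fractions, at 10.47-fold in L and 14.68-fold in M-H, and CD5 at 6.91-fold was healthy-only in L. Of 7 myeloid markers CD14 and FCGR1A were lymphoma-only in both fractions (28.6% of the markers in each). They had 9.16-fold and 10.24-fold in L and 9.75-fold and 15.17-fold in M-H. SPI1 at 6.34-fold was healthy-only in L. No marker promoter was listed in both groups of a fraction. In gene bodies 1 of 7 markers of each cell type was lymphoma-only in L (14.3%, against 9.05% of all genes). In M-H these counts were 1 for B cells, 1 for T cells and 3 (42.9%) for myeloid cells, against 13.5%. Healthy-only bodies were limited to 2 T-cell markers in L, against 10.8%, and 2 B-cell markers in M-H, against 1.96%. The part of cell makeup in the calls of the homeobox factors was not tested.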

How the data were processed

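MethylCap-seq libraries of 5 lymphoma and 3 healthy dogs were analysed as 4 pooled peak lists. Per the submitters' processing notes BWA, MACS2 and CanFam3.1 were used; versions, roles and the way dogs were pooled are not given in the sources used here. Per the file headers the authors deposited each peak's position, a fold enrichment (a ratio; its background is not stated), a nearest gene, the distance to its start, and flags for islands, shores and enhancers. Depth is unknown.

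Starts were recovered from peak position and distance for 18112 of 18148 symbols. Gene columns were shifted in 4, 2, 3 and 0 rows of lymphoma L, healthy L, lymphoma M-H and healthy M-H, and these peaks were kept without a gene. Of 54 symbols turned into dates 49 were restored. Names and coding status came from RefSeq (UU_Cfam_GSD_1.0), with no coordinates. No sequence is printed, since no genome of the build was used here.

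Peaks sharing 1 bp counted as overlapping. Calls and Wilson intervals were computed in Python 3.11.15 with pandas 2.3.3 and SciPy 1.17.1. Tested on simulated data, 600 of 600 promoter calls planted around recovered, well-separated starts were recovered. Neither the recovery of starts nor peaks that only reach the edge of the window were tested there. Groups came from the labels, and lymphoma was compared with healthy within a fraction and L with M-H within a group. Columns left unmapped numbered 0.

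The members, the other lists and the alternatives were chosen with earlier results of these data known. Named genes are the 10 highest promoter folds per list, the members called in 1 group in both fractions, healthy-only in L or listed in all 4 lists, the 3 with most peaks per list, the leading member of each class, and POU2F1, POU2F2, MEIS1, CUX1, PAX8 and TLX1. Some genes within this rule are not named; counts include them. Those named beyond this, such as the L-only and ONECUT promoters, LMX1A and PAX7, were chosen after their values were seen. Alternatives were other promoter windows, a fold of at least 8, equal list lengths, absence over 5 kb, the peak's middle, PAX5 and SATB1 added, close members counted once, and, added after seeing the data, joined fractions and peaks assigned to the member itself.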

Additional observations from a re-analysis of the deposited data

Results flagged for a closer look

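In 5 members the fractions gave opposite calls, with a peak in lymphoma but not healthy in M-H and in healthy but not lymphoma in L. None of these differences was tested, since each list is pooled. The share of all genes with opposite calls was not counted, so whether 5 members are many or few is not known.

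At the promoter these were ALX4, with 8.0-fold in lymphoma M-H and 7.98-fold in healthy L, IRX6, with 6.99-fold and 7.57-fold, and MSX2, with 7.33-fold and 8.18-fold. In the gene body they were EN1, with 8.25-fold in lymphoma M-H and 6.54-fold in healthy L, and IRX1, with 6.62-fold and 6.96-fold. The peaks of ALX4, IRX6, EN1 and IRX1 overlapped between the fractions, and those of MSX2 did not.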

How the results depend on the processing

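Of 98 values of 14 results under the alternatives, 62 stayed within 1.5 times the main count (for shares, within its interval) and 36 moved. A fold of at least 8 moved lymphoma-only promoters in L to 6 (6.5%, against 13.6% of all genes). Healthy-only ones in L moved to 1 (1.1%, against 2.29%), and lymphoma-only ones in M-H to 10 (10.9%, against 16.5%). Body counts in L moved to 15 lymphoma-only (16.3%, against 11.1%) and 7 healthy-only (7.6%, against 6.56%). In M-H 1 body was healthy-only (1.1%, against 0.983%). Unmatched lymphoma peaks moved to 67.7% in L, against 51.8%, and 82.7% in M-H, against 63.8%. The same limit moved promoters of 1 fraction only in lymphoma to 3 for L (3.3%, against 5.28%) and 6 for M-H (6.5%, against 6.01%). In healthy they moved to 3 for L (3.3%, against 7.14%) and 1 for M-H (1.1%, against 3.19%). Equal lengths moved M-H promoters to 8 lymphoma-only (8.7%, against 10.5%) and 1 healthy-only (1.1%, against 2.82%). M-H bodies moved to 7 (7.6%, against 5.33%) and 10 (10.9%, against 6.86%), and unmatched M-H peaks to 52.6%, against 35.2%. L-only promoters moved to 3 in lymphoma (3.3%, against 4.84%) and 3 in healthy (3.3%, against 5.44%). M-H-only promoters in healthy moved to 1 (1.1%, against 6.84%). These settings keep fewer peaks by construction.

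Healthy-only promoters in L became 0 with 500 bp either side or the peak's middle, against 2.52% and 3.33% of all genes. They became 2 (2.2%, against 4.46%) with 2 kb upstream and 500 bp downstream. L-only promoters in healthy became 2, 2 and 4 there, and M-H-only ones 1 with the last. Absence over 5 kb left 9 lymphoma-only promoters in L (9.8%, against 12.6%). It left 2 L-only ones in lymphoma (2.2%, against 5.89%). Joined fractions gave 27 lymphoma-only promoters (29.3%, against 16.9%) and 1 healthy-only (1.1%, against 3.89%). Bodies were 13 (14.1%, against 7.75%) and 7 (7.6%, against 10.8%). For the windows and absence the cause was not tested. PAX5 and SATB1 added, close members counted once and the member's own peaks moved none.

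No paired analysis was possible because the lists pool the dogs, although L and M-H titles share dog numbers; no dog was left out for the same reason. Unknown depth and the limit of 6-fold leave weaker methylation unlisted.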

Other observations

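At 8 loci of members (2.4%, interval 1.2 to 4.7, against 0.3% of the loci of all genes) exactly healthy L and lymphoma M-H held a peak. They belonged to PITX1, ALX4, EN1, IRX6, IRX1, PAX3, CUX1 and PAX9, and ran from 6.02-fold at CUX1 to 7.98-fold at ALX4 in healthy L, and from 6.32-fold at PAX3 to 8.35-fold at PITX1 in lymphoma M-H. A further 4 loci (1.2%, against 0.4%) were in both healthy lists and no lymphoma list, among them those of OTX1, VAX1 and DLX3, the highest at 8.37-fold at DLX3 in healthy L.

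EN2, a hindbrain factor, and POU4F3, a factor of hair cells of the inner ear, each had 1 locus, found in both lymphoma lists alone. EN2 had 7.18-fold in L and 14.15-fold in M-H (chromosome 16, 18367052 to 18368299), and POU4F3 had 9.28-fold and 12.13-fold (chromosome 2, 40768982 to 40770190). These genes were chosen after their values were seen.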
